A study of Mus musculus with 6 samples.

Results

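The genes that make microRNAs and destroy their precursors were followed in mouse embryonic stem cells kept on or taken off the drug that drives Argonaute 2 (Ago2), the protein that holds a microRNA on its target. They are 10 genes chosen by name from 31310 in the table: Drosha, Dgcr8, Xpo5, Dicer1, Tarbp2, Prkra, Adar, Zcchc11, Zcchc6 and Dis3l2. Drosha is written Rnasen in the file. TT-FHAgo2 is a clonal line in which doxycycline sets Ago2 expression. All cells were kept in 0.1 µg/mL doxycycline. One group then had 48 h at 2.5 µg/mL, a dose the labels equate with wild-type Ago2, and the other had 96 h with no drug. Strand-specific polyA RNA libraries were made from both groups, 2 from each, and are numbered 0 and 1 in the file. The clone stands for 1 line, the drug itself differs between the groups along with Ago2, and no parental cells were compared. Samples with spike-in RNA, 1 of these cells and 1 of mesenchymal stem cells, were not analysed here.

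MicroRNAs are cut from long primary transcripts in the nucleus by the Microprocessor, in which the ribonuclease Drosha works with the RNA-binding protein Dgcr8. Xpo5 (exportin 5) carries the hairpin precursor to the cytoplasm, where Dicer1 cuts it, helped by the double-stranded RNA-binding proteins Tarbp2 and Prkra. Adar edits adenosines to inosines in double-stranded RNA, including some microRNA precursors. In stem cells the protein Lin28a brings the uridyltransferases Zcchc11 (Tut4) and Zcchc6 (Tut7) to the let-7 precursor, and the exoribonuclease Dis3l2 degrades the uridylated precursor. Processed microRNAs are then loaded into Argonaute proteins. The comparison asked whether the RNA of this machinery differed when the drug that drives Ago2 was withdrawn, within a study of microRNA and target concentrations.

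MicroRNA families known from mouse embryonic stem cells, and let-7, were set against the 3′ untranslated regions of the 10 genes to show which of them carry a seed match. PolyA libraries do not measure microRNA levels. The mature forms with a match are printed 5′ to 3′ from RefSeq (GRCm38.p6), with the seed, bases 2 to 8, in capitals. The seeds of miR-16-5p and miR-103-3p overlap when shifted by 1 base, so single sites can match both.
mmu-miR-291a-3p: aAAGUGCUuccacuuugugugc
mmu-miR-19b-3p: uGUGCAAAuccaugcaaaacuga
mmu-miR-16-5p: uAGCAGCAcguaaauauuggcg
mmu-miR-103-3p: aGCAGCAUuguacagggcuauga
mmu-let-7a-5p: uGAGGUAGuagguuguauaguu

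Matches were searched in the longest annotated region of each gene (GENCODE M21) as 8mers (the seed match followed by A), 7mer-m8 (bases 2 to 8) or 7mer-A1 (bases 2 to 7 followed by A). There were 16 matches in 7 of the 10 genes. Over 21020 regions of all genes, a match to a single one of these microRNAs was found in 12.7% to 23.4%. The share of regions with a match to any of them was not computed. It must be larger than these values, so 7 of 10 genes cannot be read as many or few. Drosha, Prkra and Dis3l2 held none, and miR-17-5p and miR-92a-3p, also searched, matched no member. Dicer1, whose region of 3851 bases is the longest of the 10, held 6 matches. Its miR-103-3p 8mer at bases 1417 to 1424 of the region overlaps a miR-291a-3p 7mer-A1 at bases 1422 to 1428. A match to miR-103-3p is found in 43.8% of the 2119 regions within 25% of Dicer1's length, and one to miR-291a-3p in 42.0%. Tarbp2's short region of 334 bases held matches to miR-16-5p, miR-103-3p and let-7a-5p, which are found in 8.21%, 5.57% and 5.24% of 2155 regions of like length. Its miR-16-5p and miR-103-3p matches overlap, at bases 243 to 249 and 242 to 248, so they are not separate sites. The 8mers, the overlapping pair in Dicer1, the Tarbp2 sites and the let-7 site in Zcchc11 are printed as DNA with the match in capitals and 10 bases on each side. Xpo5 and Zcchc6 each held a miR-16-5p 7mer-m8. A match is a description of the letters, and whether the assembled isoforms end in these regions was not checked.
Dicer1, miR-103-3p 8mer: gcttcatgtaATGCTGCActtaggttca
Dicer1, miR-291a-3p 7mer-A1: atgtaatgctGCACTTAggttcaagtc
Dgcr8, miR-103-3p 8mer: atgtacagtcATGCTGCAagggtgggga
Dgcr8, miR-19b-3p 8mer: tacagagattTTTGCACAaccaagccca
Adar, miR-19b-3p 8mer: tggggatgtcTTTGCACAgccaaatcat
Tarbp2, miR-16-5p 7mer-m8: cctgaataaaTGCTGCTctttggcttc
Tarbp2, miR-103-3p 7mer-m8: tcctgaataaATGCTGCtctttggctt
Tarbp2, let-7a-5p 7mer-m8: ggtgccatctCTACCTCtgacacagcc
Zcchc11, let-7a-5p 7mer-A1: agggtatccgTACCTCAgtgtcagtta

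Dgcr8 RNA is also a known substrate of the Microprocessor, which cuts hairpins in it. RefSeq places miR-1306 inside the coding sequence of Dgcr8-201 (bases 425 to 2746 of the transcript), with the 5p arm at bases 531 to 553 and the 3p arm at 573 to 593. Its arms lie at chr16:18284288-18284310 and chr16:18284248-18284268, minus strand, GRCm38.p6. They are shown because cleavage to release them would cut the message counted here as Dgcr8.
mmu-miR-1306-5p: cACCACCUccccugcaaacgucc
mmu-miR-1306-3p: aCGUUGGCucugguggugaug

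Values are FPKM (fragments scaled by transcript length and library total), deposited by the authors for each assembled isoform and summed here over isoforms of at least 200 nt. Isoforms shorter than that, left out here, hold 98.9% to 99.6% of each library's total FPKM, so the sums used below are a small part of that total. Of 96 assembled isoforms of the 10 genes, 95 were used. A log2 change compares log2(FPKM + 0.5) without doxycycline with the same quantity under it, so a negative change is lower off the drug. The added 0.5 shrinks the changes of weakly expressed genes. They were tested with limma, two-sided and adjusted over 13207 genes, with a call at an adjusted p under 0.05. With 2 libraries against 2, an exact permutation test of a single gene cannot go below p = 0.333. Nothing in the labels states that the libraries are from separate cultures. The p-values thus measure only the spread between these samples, possibly a technical one. Fragment totals could be read from steps between low values in the number 1 libraries (46.5 M and 46.6 M fragments, with 100% of values whole within 0.1 fragment). In the number 0 libraries 34.0% and 34.4% of values were whole, against 20% by chance, so their depth is unknown. Dgcr8 (with Trmt2a), Zcchc6 (with Etohd2), Zcchc11 and Dis3l2 overlap genes of the opposite strand, and whether strand was used in the authors' estimates is not given in the sources used here. In the number 1 libraries the members' values rest on about 451 fragments (Prkra without doxycycline) to 11965 (Drosha with it).

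The targeted gene was read first. Ago2 (Eif2c2 in the file) stood at 35.2 and 36.7 FPKM with doxycycline and 28.7 and 28.8 without (log2 change -0.32, SE 0.08, limma adjusted p = 0.0287). Ago2 RNA off the drug was thus still at a fold of 0.802 of that on it, and the file does not tell a transgene from the endogenous gene. The labelled cell type was clear in every library: 7 of 7 embryonic stem cell markers (Pou5f1, Nanog and others) averaged at least 1 FPKM and summed to between 3808 and 4596 FPKM. Of 7 fibroblast markers 1, Thy1, averaged at least 1 FPKM, Col3a1 and Postn were listed at 0, and the 7 summed to between 2.33 and 2.92 FPKM. None of 5 trophoblast or 5 endoderm markers reached that mean. Of 4 blood and endothelial markers only Pecam1 did, and the 4 summed to 21.4 and 25.3 FPKM with doxycycline and 48.1 and 52.9 without, while Hbb-b1 was at 0. Neural markers summed to between 59.5 and 71.8 FPKM, from Pax6 and Tubb3. The part of these cell markers in the results was not tested.

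Of the 10 genes, 1 passed the test in limma: Tarbp2, which helps Dicer1, was lower without doxycycline. None passed upward, and at an unadjusted p under 0.05 Tarbp2 was still the single one. Over all genes tested, 41.0% were called, 21.3% lower and 19.7% higher without doxycycline. For 6 of the 10 (Dgcr8, Xpo5, Tarbp2, Prkra, Adar and Zcchc6) both libraries of one condition lay above both of the other, where 73.1% of all genes did so. The median absolute log2 change of the 10 was 0.15, beside 0.31 over all genes tested, and their median change was -0.08 beside -0.06. The largest absolute change among them was 0.33. On simulated data of this design, with 6000 of 12948 genes changed, the test called 16.5% of log2 changes of 0.25 and 74.4% of changes of 0.5. A member that missed the threshold may therefore still have changed by the amounts in its interval.

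**Figure D1:**
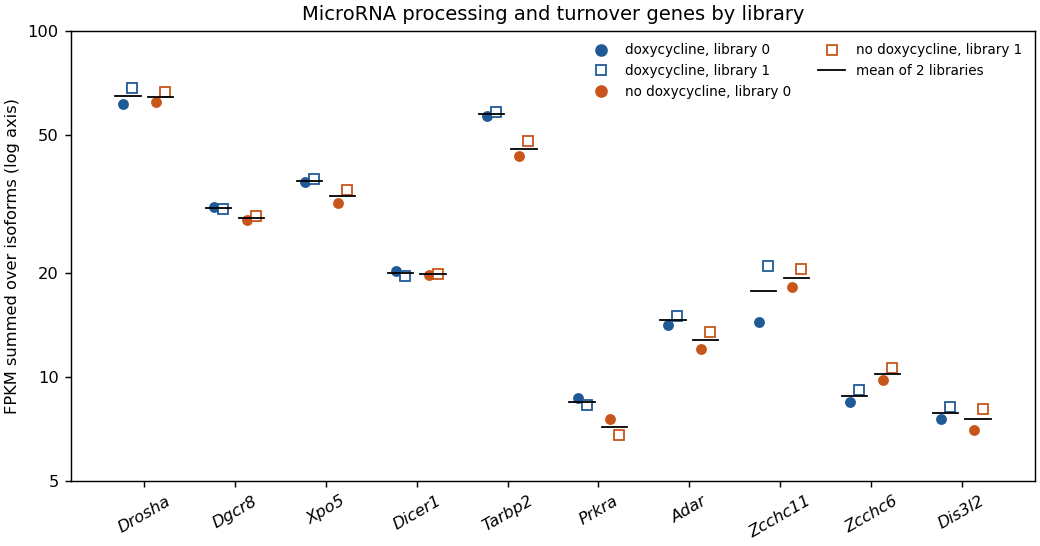
FPKM of each gene (log axis) in the 4 libraries, circles for number 0 and squares for number 1, with doxycycline in blue and without in orange; black lines are means of 2 libraries. Tarbp2 falls from 56.96 and 58.35 to 43.50 and 47.95, while Drosha, Dicer1, Zcchc11 and Dis3l2 have overlapping groups.

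The levels, which FPKM allows to be compared between genes, spanned about a factor of 8 in the mean with doxycycline, from Drosha at 65.0 to Dis3l2 at 7.85 FPKM. Drosha, Tarbp2, Xpo5 and Dgcr8 were the 4 highest in that order in every library. No libraries of neighbours overlapped among them or between Dgcr8 and Dicer1 within either condition. Below them, Dicer1 and Zcchc11 overlapped in both conditions, as did Zcchc11 and Adar with doxycycline. At the low end Zcchc6 and Prkra overlapped with doxycycline, and Dis3l2 and Prkra without. The nuclear enzyme had more RNA per length than the cytoplasmic one: the ratio of Drosha to Dicer1 was 3.06 and 3.49 with doxycycline and 3.15 and 3.36 without.

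Neither gene of the Microprocessor pair was called. Drosha (chromosome 15, 12754545 to 12865045, plus strand, NCBIM37), the ribonuclease, stood at 61.8 and 68.3 FPKM with doxycycline and at 62.2 and 66.7 without. The groups overlapped entirely, with a log2 change of -0.01 (SE 0.09, limma adjusted p = 0.924, 95% interval -0.25 to 0.23). A 4471-nt form matching Drosha-201 held 77.5% of the RNA in both conditions. An 11-exon form of 1166 nt from an internal start held 12.8% and 14.6%, at 7.28 and 9.43 FPKM with doxycycline and 11.7 and 7.19 without, so its libraries overlapped too. Dgcr8 (chromosome 16, 18254041 to 18289342, minus strand), the RNA-binding partner, stood at 31.1 and 30.6 FPKM with doxycycline and at 28.4 and 29.2 without. Both libraries without the drug were lower, by a log2 change of -0.10 (SE 0.08, limma adjusted p = 0.354). Its 4320-nt form held 84.7% and 85.1% of the RNA. The ratio of Drosha to Dgcr8 was 1.99 and 2.24 with doxycycline and 2.19 and 2.29 without.

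Xpo5 (chromosome 17, 46339731 to 46380544, plus strand), the precursor exporter, had 1 assembled isoform of 5078 nt. It measured 36.5 and 37.3 FPKM with doxycycline and 31.9 and 34.7 without. Both libraries without the drug were lower (log2 change -0.15, SE 0.09), and limma did not call it (adjusted p = 0.218).

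Dicer1 (chromosome 12, 105925945 to 105990302, minus strand), which cuts the precursor, had the smallest absolute change of the 10 in FPKM as deposited. Its FPKM was 20.2 and 19.6 with doxycycline and 19.7 and 19.9 without, so the groups overlapped (log2 change -0.01, SE 0.08, limma adjusted p = 0.948). The 95% interval allows a fold between 0.867 and 1.14. Of all genes tested, 1.25% had a smaller absolute change in the same unit, and Dicer1's rank among the 10 depends on the scaling. Its RNA was divided among 3 long forms nearest to Dicer1-201: 10162 nt (52.0% with and 47.99% without doxycycline), 9851 nt (27.7% and 24.3%) and 10061 nt (12.9% and 22.2%). The 10061-nt form measured 1.595 and 3.54 FPKM with the drug and 4.67 and 4.13 without, a gap between the groups that the summed value does not show. The groups overlapped for the 10162-nt form (10.2 and 10.5 with, 10.4 and 8.62 without). They also overlapped for the 9851-nt form (6.74 and 4.29 with, 4.06 and 5.57 without). Summed values separated in this way for 73.1% of all genes tested. Such splits among long forms that share most exons are estimates of the authors' software and were not tested.

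Tarbp2 (chromosome 15, 102348623 to 102354107, plus strand), Dicer1's binding partner, was the single gene of the 10 to pass. It fell from 56.96 and 58.35 FPKM with doxycycline to 43.50 and 47.95 without. The 2 groups did not overlap, and the log2 change was -0.33 (SE 0.09, limma adjusted p = 0.0354), a fold of 0.794 with a 95% interval of 0.679 to 0.929. In bulk RNA, fewer cells of a type and less RNA per cell cannot be told apart. The change was -0.40 to -0.26 when any single library was left out. The call was lost without the number 0 or number 1 doxycycline library (-0.35 and -0.32, limma adjusted p = 0.151 and 0.197) and without the number 0 library off the drug (-0.26, 0.125), and was kept without the remaining one (-0.40, 0.042). Over all genes those fits with a library fewer called 3229 to 4416, against 5417. The call was also lost with no filter on low genes, at the same change (-0.33, adjusted p = 0.0565), with annotated isoforms alone (-0.28, 0.108) and with the most abundant isoform alone (-0.22, 0.221). With TPM (transcript shares of a fixed library sum, over the same isoforms) it was -0.17 (0.0973). Over 17 alternatives the adjusted p ranged from 0.00598 to 0.221. TPM moved the median of all genes by 0.16, and since it rescales each library by 1 factor, Tarbp2 stays at -0.28 relative to that median under either unit by construction.

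Within Tarbp2 the fall was not shared evenly by the start sites of its 21 isoforms, a pattern picked out after the values were seen and not tested. Isoforms from the start site at 102349157 to 102349233 went from 10.0 and 11.7 FPKM with doxycycline to 4.80 and 5.50 without. Those from the main start site at 102348890 to 102348988 went from 32.0 and 34.1 to 26.4 and 29.6. These sites account for differences in the mean of -5.73 and -5.08 FPKM out of -11.9. The most upstream site, at 102348623 to 102348677, measured 8.73 and 7.34 with the drug and 6.77 and 6.83 without. The site at 102348788 to 102348886 was higher in the mean without it, at 3.46 and 3.46 with and 3.41 and 4.93 without. The 1523-nt form matching Tarbp2-201, from the main site, held 51.8% and 55.9% of the RNA.

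Prkra (chromosome 2, 76467955 to 76486072, minus strand), the other partner of Dicer1, was lower in both libraries without doxycycline. It measured 8.65 and 8.28 FPKM with the drug and 7.56 and 6.76 without (log2 change -0.23, SE 0.10), and limma did not call it (adjusted p = 0.115). Its 1614-nt form held 96.3% and 96.4% of the RNA. Tarbp2 exceeded Prkra by ratios of 6.58 and 7.05 with doxycycline and 5.75 and 7.09 without. The ratio of Dicer1 to Tarbp2 was 0.355 and 0.336 with the drug and 0.453 and 0.414 without. Its groups did not overlap, which restates the fall of Tarbp2, since Dicer1 itself was nearly level.

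Adar (chromosome 3, 89518805 to 89557368, plus strand) measured 14.1 and 15.0 FPKM with doxycycline and 12.04 and 13.4 without. The summed change of -0.19 (SE 0.09) was not called by limma (adjusted p = 0.170). The sum hides a larger difference between its start sites, which was picked out after the values were seen and not tested. Isoforms that start upstream, at 89518805 to 89519254, went in sum from 9.82 and 11.0 FPKM with doxycycline to 5.22 and 7.38 without. Most of that fall came from the start site at 89518943 to 89518944, whose mean was -3.904 FPKM different without the drug. The start at 89518805 differed by -0.332 FPKM in the mean, and the one at 89519254 was higher without the drug, by 0.139 FPKM. Isoforms that start downstream, at 89534670 to 89534706, stood at 1.88 and 3.39 with the drug and at 5.47 and 4.75 without. In each set the 2 groups did not overlap, in opposite directions. The upstream set held 69.5% and 73.2% of Adar RNA with doxycycline and 43.4% and 54.9% without. The downstream set held 13.3% and 22.6%, then 45.5% and 35.4%, and starts inside the gene gave the rest. The isoforms share most exons, so this division is the authors' software's estimate.

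Transcripts annotated at these start sites differ in the protein that GENCODE gives them. The coding sequences of the assembled isoforms themselves were not read. The upstream form most abundant in the mean, of 5909 nt, matches Adar-202, which GENCODE translates to 930 residues. It went from 5.34 and 5.25 FPKM with doxycycline to 1.72 and 3.50 without. The downstream form most abundant in the mean without the drug, of 3794 nt, matches Adar-203, with 1178 residues. This form stood at 0.496 and 1.84 with and 1.16 and 3.49 without, so its own libraries overlapped. As background, Adar is known for a constitutive shorter protein and a longer one made from an interferon-inducible start. RefSeq gives 3 windows of 250 bases before to 50 after a start of Adar. One upstream and the downstream window are printed, for the plus strand of GRCm38.p6, because the summed sets of starts go opposite ways here. The third, chr3:89714988-89715287, overlaps the upstream one and is not printed. The first printed ends 50 bases into Adar-202 and the second 20 bases into Adar-201, Adar-203, Adar-204 and Adar-205. Capitals mark GAAANNGAA, part of the interferon-response element, searched on both strands after the start sites had been compared. It occurs at bases 2 to 10 and 284 to 292 of the downstream window and in neither upstream window, and in 8.56% of 32851 promoter windows. The match at 284 to 292 lies past the start, within the transcribed part. The same motif with a further A at its end, found in 3.44% of the windows, is in none of the 3. Any part of interferon in these values was not tested.
upstream window, chr3:89714772-89715071: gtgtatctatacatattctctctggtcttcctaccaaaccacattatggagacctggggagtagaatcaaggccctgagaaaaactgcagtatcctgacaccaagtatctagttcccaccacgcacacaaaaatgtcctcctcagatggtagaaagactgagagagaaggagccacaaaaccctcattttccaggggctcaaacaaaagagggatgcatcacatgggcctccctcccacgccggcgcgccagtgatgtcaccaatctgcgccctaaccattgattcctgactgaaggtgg
downstream window, chr3:89730468-89730767: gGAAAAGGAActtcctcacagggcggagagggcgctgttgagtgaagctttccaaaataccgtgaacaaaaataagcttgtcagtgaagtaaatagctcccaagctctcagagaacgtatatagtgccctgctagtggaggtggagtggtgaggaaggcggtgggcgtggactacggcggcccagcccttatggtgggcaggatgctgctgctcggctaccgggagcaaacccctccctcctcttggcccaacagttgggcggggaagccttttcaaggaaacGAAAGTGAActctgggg

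The uridyltransferases had the 2 positive changes, and neither was called. Zcchc6 (chromosome 13, 59873240 to 59924508, minus strand) measured 8.46 and 9.16 FPKM with doxycycline and 9.80 and 10.6 without. The groups did not overlap (log2 change 0.20, SE 0.09, limma adjusted p = 0.142). Number 0 against 0 and 1 against 1 each gave 0.20, but nothing in the labels pairs these libraries. With TPM it was called, at 0.36 (adjusted p = 0.023, the lowest of 17 alternatives, the highest being 0.493). A 27-exon form of 5441 nt went from 3.73 and 4.39 FPKM to 5.67 and 5.83, and a 28-exon form of 5505 nt stood at 2.22 and 2.42 with and 1.31 and 2.08 without doxycycline. A 2-exon form of 2855 nt at the 5′ end of the gene measured 2.34 and 2.32 with and 2.81 and 2.68 without. In each of the 3 forms the groups did not overlap, and the 5505-nt form was the one that was lower without the drug.

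Zcchc11 (chromosome 4, 108131923 to 108232026, plus strand) varied between replicates more than between conditions. It measured 14.4 and 20.9 FPKM with doxycycline and 18.2 and 20.5 without (log2 change 0.15, SE 0.19, limma adjusted p = 0.550). The spread followed a 3-exon form of 587 nt at the 3′ end, at 0.218 and 6.32 FPKM with and 2.40 and 5.79 without the drug. The other isoforms summed to 14.2 and 14.6 with and 15.8 and 14.7 without doxycycline. With isoforms of at least 1000 nt alone, an alternative chosen after the values were seen, the change was -0.01 (adjusted p = 0.949), and without the number 0 doxycycline library it was -0.11. Its full-length forms of 6054 and 5865 nt, which match Tut4-201 and Tut4-202 (1644 and 1648 residues), traded places between the libraries with doxycycline: 8.38 and 3.27 FPKM for the first and 3.88 and 8.14 for the second.

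Dis3l2 (chromosome 1, 88600248 to 88946730, plus strand), the nuclease that removes uridylated precursors, was among the 2 lowest of the 10 in each library. It measured 7.53 and 8.18 FPKM with doxycycline and 6.99 and 8.04 without, and the groups overlapped (log2 change -0.06, SE 0.11, limma adjusted p = 0.667). Its 3083-nt form held 69.1% and 58.3% of the RNA. A 2053-nt form from an internal start stood at 0.131 and 0.293 with the drug and 0 and 1.97 without, so 1 library decides its mean.

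**Figure D2:**
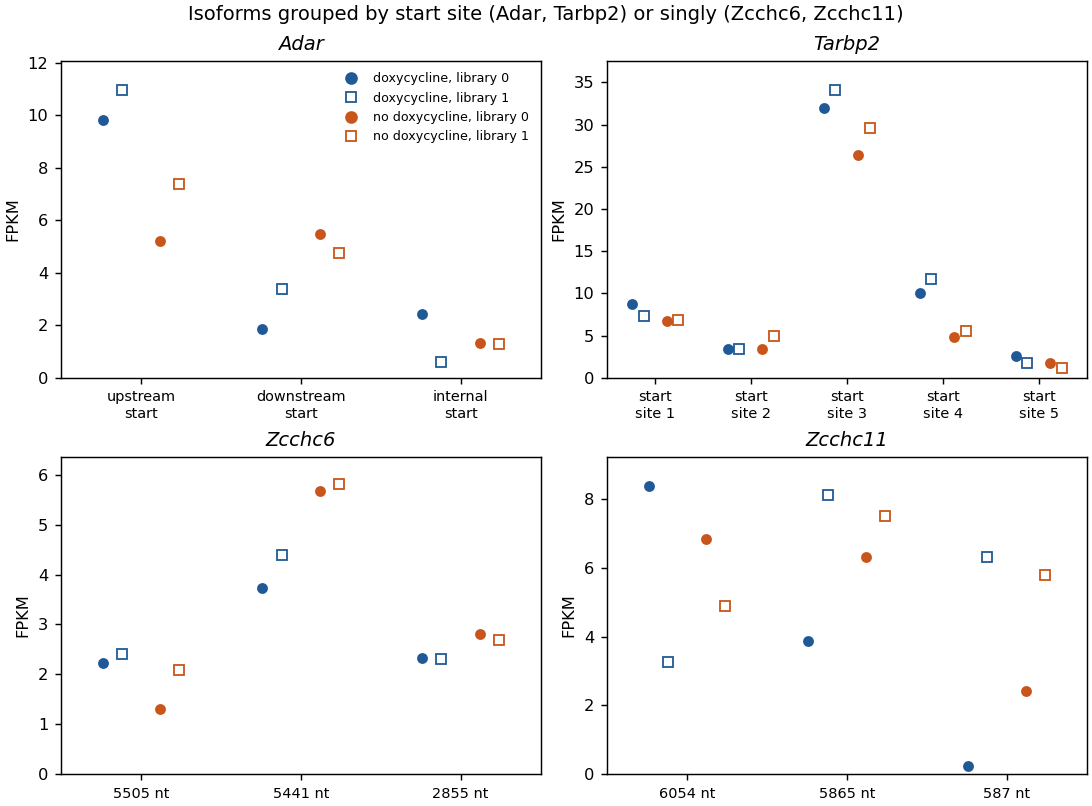
FPKM in each library (colours and symbols as in the plot of FPKM by gene) of Adar and Tarbp2 isoforms summed by start site and of single Zcchc6 and Zcchc11 isoforms by length. For Tarbp2, start sites that reach 2 FPKM in some library are numbered 1 to 5 along the gene, the main one being 3. Summed, the upstream Adar starts are lower and the downstream ones higher without doxycycline.

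Scaling set the sign of the small changes. Summed over the isoforms used, the 2 libraries with doxycycline reached 0.509 M and 0.535 M FPKM, and the 2 off the drug reached 0.449 M and 0.485 M. With TPM, which fixes those sums, Drosha (0.15), Dgcr8 (0.06), Xpo5 (0.01), Dicer1 (0.15) and Dis3l2 (0.09) turned positive, none of them called. With the library medians set equal, Adar passed at -0.25 (limma adjusted p = 0.0491; 0.0406 to 0.885 over the alternatives).

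**Figure D3:**
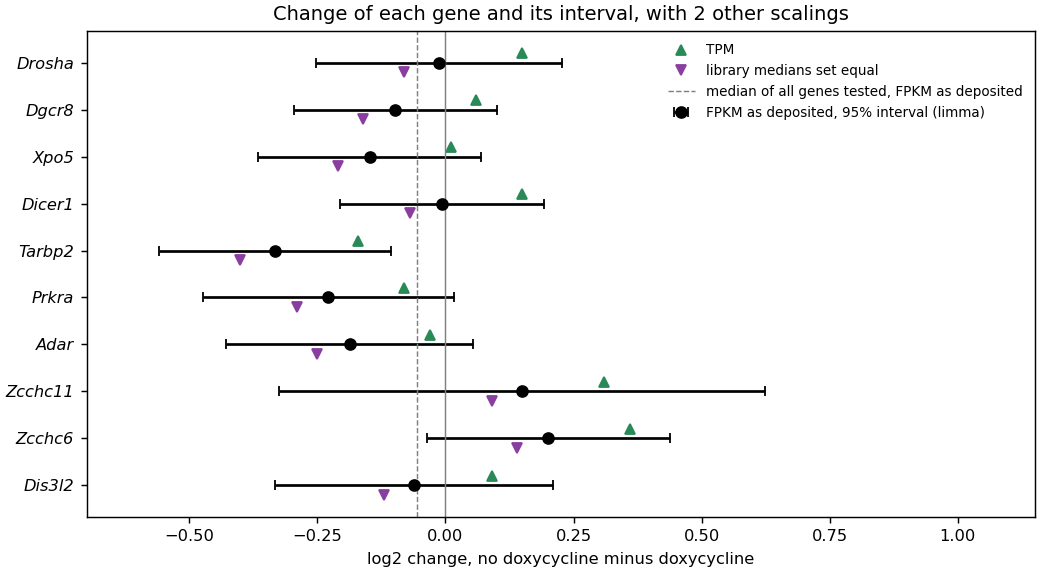
Log2 change of each gene (no doxycycline minus doxycycline) with its 95% interval from limma, and the change with TPM or with library medians set equal as triangles; the dashed line is the median of all genes tested. Tarbp2's interval, -0.56 to -0.11, is the one that lies wholly below 0, and the scalings shift all 10 genes together.

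Genes that work beside these 10 were read from 5 lists of 83 genes, chosen like the members with earlier results of these data known. Of them, 80 were tested: Zfr2 and Adad1 missed the minimum and Exosc6 was listed at 0. Limma called 32 of the 80 lower without doxycycline, beside 21.3% of all genes, and 2 higher, beside 19.7%. The lists' medians moved up with TPM and down with medians set equal, as all genes did.

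Microprocessor cofactors and binders of primary microRNA transcripts had 4 of 20 called lower and none higher in limma (0 higher at an unadjusted p under 0.05), with a median log2 change of -0.06, as over all genes. With TPM, Khsrp was called higher. Taf15, a FET-family RNA-binding protein, fell most, from 92.2 ± 1.74 to 51.4 ± 1.21 FPKM (SD, n = 2; log2 change -0.84, limma adjusted p = 0.00267). Ddx1, an RNA helicase, fell from 103 ± 1.62 to 75.9 ± 2.24 FPKM (-0.44, limma adjusted p = 0.0126). Ilf2, a double-stranded RNA-binding complex subunit (-0.40, limma adjusted p = 0.0369), and Ncbp1, a cap-binding subunit (-0.34, limma adjusted p = 0.0289), fell as well; with TPM their changes were -0.24 and -0.18 and missed the threshold (adjusted p = 0.0513 and 0.0856). Of the 4 falls, 2 were also called with TPM and 2 with the most abundant isoform alone.

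Among 14 exportins and genes of the Ran cycle, 10 were called lower and none higher in limma (0 higher at an unadjusted p under 0.05), with a median log2 change of -0.41 (-0.25 with TPM). Xpo5 at -0.15 is not in that list and was smaller in change than its median. Nutf2, which imports Ran into the nucleus, fell from 88.9 ± 0.845 to 56.0 ± 8.45 FPKM (-0.67, limma adjusted p = 0.0126). Ranbp1, a Ran-binding protein, fell from 322 ± 34.9 to 209 ± 28.0 FPKM (-0.63, limma adjusted p = 0.0207). The tRNA exporter Xpot went from 59.7 ± 2.78 to 38.7 ± 1.58 FPKM (-0.62, limma adjusted p = 0.00615) and Xpo4 from 37.6 ± 2.28 to 24.5 ± 1.25 (-0.61, limma adjusted p = 0.00736). Of the 10 falls, 5 were called with TPM, these 4 among them, and 0 with the most abundant isoform alone in limma.

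Of 14 tested genes with double-stranded RNA-binding or ribonuclease III domains or partners of such proteins, 5 were called lower and none higher in limma (0 higher at an unadjusted p under 0.05), with a median of -0.24 (-0.08 with TPM). Of the 5 falls, 3 were called with TPM and 1 with the most abundant isoform alone. With TPM, Stau1 and Eif2ak2 were called higher. Tsn, a subunit of the C3PO nuclease, fell from 41.0 ± 3.36 to 27.6 ± 2.19 FPKM (-0.56, limma adjusted p = 0.0131; 0.0562 with TPM). Strbp, an RNA-binding protein known from spermatids, fell from 32.9 ± 2.81 to 22.2 ± 0.392 FPKM (-0.55, limma adjusted p = 0.0102). Adarb1, the second editing deaminase, fell from 3.17 ± 0.0112 to 2.09 ± 0.144 FPKM (-0.51, limma adjusted p = 0.0188), a larger change than Adar's summed -0.19; the difference between them was not tested. Dus2l, a dihydrouridine synthase, fell from 14.2 ± 0.584 to 9.89 ± 0.282 FPKM (-0.50, limma adjusted p = 0.00996).

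The list of terminal nucleotidyltransferases and trimming enzymes of small RNA ends, 15 tested genes, held the partner of the uridyltransferases. Lin28a (Lin28 in the file), which recruits them to let-7 precursors, fell from 129 and 122 FPKM with doxycycline to 14.8 and 13.7 without (-3.09, SE 0.09, limma adjusted p = 0.00119). Its relative Lin28b was not called (0.13, limma adjusted p = 0.421). In all 5 were called lower and 2 higher, with a median of -0.12 (0.04 with TPM). The 2 higher were Zc3h12a (0.57, limma adjusted p = 0.0109) and Papd7 (Pols in the file, 0.46, limma adjusted p = 0.0116). With TPM 4 of the 5 and both of the others were called again, and with the most abundant isoform alone 3 of the 5 and neither of the others. Usb1, which trims U6 RNA (AA960436 in the file), fell from 21.5 ± 0.378 to 12.5 ± 0.723 FPKM (-0.76, limma adjusted p = 0.00391). Bcdin3d, a methyltransferase that acts on small RNA ends, fell from 9.74 ± 0.00532 to 5.75 ± 0.255 FPKM (-0.71, limma adjusted p = 0.00442). The mitochondrial polyA polymerase Mtpap fell from 19.0 ± 1.20 to 12.3 ± 0.605 FPKM (-0.61, limma adjusted p = 0.00759).

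Among 17 tested exoribonucleases and RNA exosome genes, 8 were called lower and none higher in limma (0 higher at an unadjusted p under 0.05), with a median of -0.32 (-0.16 with TPM). Of the 8 falls, 6 were called with TPM and 5 with the most abundant isoform alone. With TPM, Xrn2 was called higher. The 4 largest falls were exosome subunits. Exosc5 fell from 87.8 ± 7.64 to 47.3 ± 8.07 FPKM (-0.89, limma adjusted p = 0.00891) and Exosc2 from 51.1 ± 6.81 to 28.1 ± 5.19 (-0.86, limma adjusted p = 0.0137). Exosc7 (-0.73, limma adjusted p = 0.00729) and Exosc3 (-0.70, limma adjusted p = 0.00376) followed, and all 4 were called with TPM too. Dis3l2's paralogue Dis3 fell from 47.2 ± 0.577 to 31.8 ± 1.64 FPKM (-0.56, limma adjusted p = 0.00714), beside Dis3l2's -0.06. Whether the paralogues differed was not tested.

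**Figure D4:**
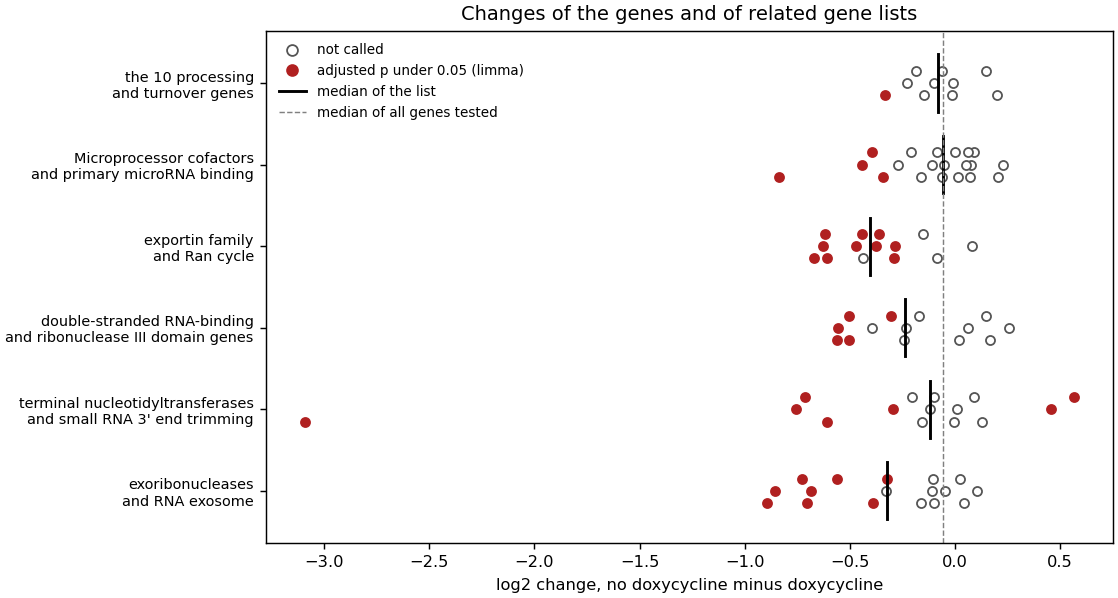
Log2 change of each gene, 1 point per gene, for the 10 microRNA processing and turnover genes and the 5 lists; filled points were called by limma, black bars are medians and the dashed line is the median of all genes tested. The exportin and exosome lists sit to the left of the 10, and Lin28a is the far point at -3.09.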

How the data were processed

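The deposited unit is FPKM per assembled isoform. The submitters' processing notes name TopHat2 2.0.9, Cufflinks 2.1.1 and build NCBIM37. Which library total scaled the FPKM is not given in the sources used here. Exon coordinates came from the Cuffmerge annotation the authors deposited. Of 181027 isoforms, 31251 without a name and 8207 under 200 nt or of another class code than = or j were left out, which gave 31310 genes.

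FPKM was summed per gene and tested as log2(FPKM + 0.5) in R 4.3.3 by limma 3.58.1 with a trended prior (3.21 prior and 2 residual degrees of freedom). Genes entered the test if either condition averaged 1 FPKM or more. Sequences and windows came from RefSeq and GENCODE tables (GRCm38.p6), matched by symbol. Tests were checked on simulated data. The members and gene lists were chosen with earlier results of these data known. The text names all 10 members, most of their isoforms above 10%, and the 4 genes of each list with the largest change. Lin28b and Dis3 were added as relatives, and Papd7 and Zc3h12a because they were called higher. Khsrp, Stau1, Eif2ak2 and Xrn2 were added because they were called higher with TPM. 17 alternatives were tried. Python 3.11.15, numpy 2.4.6, pandas 2.3.3 and matplotlib 3.10.9 served the rest.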

Additional observations from a re-analysis of the deposited data

How the results depend on the processing

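Of 170 results (10 genes under 17 alternatives), 145 kept their direction and side of the threshold, 7 lost the call (all Tarbp2), 5 gained one and 13 changed sign. The sign changes all concern changes that were never called: Drosha (0.03), Dicer1 (0.04) with the median log2 ratio of each library set to 0, an alternative chosen after seeing the data; Drosha without the number 1 doxycycline library (0.06) or the number 0 library off it (0.04), Dicer1 (0.01) and Zcchc11 (-0.11) without the number 0 doxycycline library, and Dis3l2 (0.03) without the number 0 library off it. Leaving out one library at a time gave -0.08 to 0.06 for Drosha, -0.03 to 0.01 for Dicer1, -0.11 to 0.41 for Zcchc11 and -0.16 to 0.03 for Dis3l2. Such a fit leaves 1 library in a condition, assumed to vary like the other condition. The rest changed with TPM (Drosha 0.15, Dgcr8 0.06, Xpo5 0.01, Dicer1 0.15, Dis3l2 0.09) or, for Zcchc11 (-0.01), with isoforms of at least 1000 nt.

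Genes of the 10 called lower numbered 1 in the analysis reported, 0 with no filter, TPM, the most abundant isoform alone or class code = alone, 2 with medians set equal, and between 0 and 1 leaving out one library. With TPM 1 gene was called higher. All genes called numbered 5417, and 2053 with the most abundant isoform, 2590 with class code = alone and 3229 to 4416 leaving out one library. Of the list genes, 32 were called lower and 2 higher; these became 20 and 6 with TPM, 12 and 0 with the most abundant isoform, 17 lower with class code = alone, and 15 to 24 lower and 1 to 2 higher leaving out one library. Higher genes were 48.1% of calls, 38.0% with medians set equal and 67.6% with TPM.

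With the library number as a replicate block, 8157 genes were called, among them 3 of the 10 lower (Tarbp2, Prkra at 0.0356, Adar at 0.0406, limma adjusted p) and 1 higher (Zcchc6, 0.0373), and 5 list genes higher. Only a number ties the libraries, since it could not be matched to the labels' replicates. The numbers' differences correlated at 0.461 across 13207 genes, with 2 pairs. Depth is known for the number 1 libraries alone, so counting error could not be given for the others.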
